A study of Mus musculus with 11 samples.

Results

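The antioxidant enzymes described here are 8 genes taken as a fixed list by symbol: Sod1, Sod2, Gpx4, Prdx1, Prdx2, Prdx5, Prdx6 and Gstm1. For each gene the deposited transcript with the most footprints over all libraries was read. All 8 were present among the 4338 genes of the deposited table, and all 8 were among the 3835 genes that passed the filter on low counts. They were followed in mouse cortex by ribosome footprints, the stretches of messenger RNA that ribosomes shield from nuclease. No total RNA was used here, so amount of messenger and ribosome loading cannot be told apart. Wild-type C57BL6 mice aged 7 to 8 weeks underwent either occlusion of the right middle cerebral artery with a filament for 35 min and 3 h of reperfusion, or a sham operation in which the arteries were exposed and no filament was inserted. The groups were the occluded (ipsilateral) hemisphere after occlusion with 4 libraries, the opposite (contralateral) hemisphere after occlusion with 4 libraries, and sham-operated cortex with 3 libraries. All mice were anaesthetised. For the 4 ipsilateral libraries the tissue entry says contralateral, against the title and the description, and the title was followed. The side of the sham cortex is not given in the sources used here. Bulk footprints cannot tell fewer cells of a type from less RNA per cell.

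These enzymes form successive steps of the defence against reactive oxygen. Superoxide dismutases turn superoxide into hydrogen peroxide, peroxiredoxins and glutathione peroxidases reduce peroxides, and glutathione transferases couple reactive compounds to glutathione. In brain, reperfusion after ischaemia is a classic setting of superoxide production, and the transcription factor NRF2 is the best known inducer of this gene family.

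None of the 8 genes passed the test of a difference between any pair of groups. In ipsilateral against sham cortex 0 of 8 passed edgeR's quasi-likelihood test (smallest adjusted p = 0.808), where 0.104% of all tested genes passed. In ipsilateral against contralateral cortex 0 of 8 passed (smallest adjusted p = 0.873) against a background of 0.365%, and in contralateral against sham cortex 0 of 8 passed (smallest adjusted p = 0.912) against a background of 0%. At an unadjusted p under 0.05 stood 0 of 8 in each comparison, where the share of all tested genes was 7.74%, 7.61% and 5.66% in the same order of comparisons. Groups that did not overlap were found for 0 of 8 genes in each comparison, against 7.20%, 4.41% and 7.69% of all tested genes. Backgrounds this low leave 0 of 8 near the share of all genes. DESeq2 and limma-voom also called 0 of 8 in each comparison, where DESeq2 called 10, 13 and 2 of all genes and limma-voom 5, 10 and 0. DESeq2 gave no adjusted p for Gpx4 and Prdx5 ipsilateral against sham (unadjusted p = 0.700 and 0.260), so 6 of the 8 were judged by it there.

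The fitted changes were small. Against sham, the ipsilateral log2 changes of the 8 genes ran from -0.38 to 0.18 with a median of 0.07, beside a median of 0.00 over all tested genes. Ipsilateral against contralateral, they ran from -0.22 to 0.15 with a median of -0.10, beside 0.01 over all tested genes. Contralateral against sham, they ran from -0.43 to 0.34 with a median of 0.15, beside 0.00 over all tested genes. Above 0 stood 7 of 8 genes ipsilateral against sham (49.9% of all tested genes), 2 of 8 ipsilateral against contralateral (51.4%) and 6 of 8 contralateral against sham (49.3%). These comparisons share libraries, so their values are not independent. Many of the changes are so near 0 that leaving out 1 library turns the sign, and no direction is given for a change that did not pass. The precision sets how much could have been missed: the 95% intervals had half-widths of 0.45 to 0.62 (log2) in ipsilateral against sham cortex. Over the 8 genes, those intervals reached from 0.527-fold to 1.74-fold. A change beyond these bounds lay outside all 8 intervals, and the intervals of single genes were narrower.

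**Figure D1:**
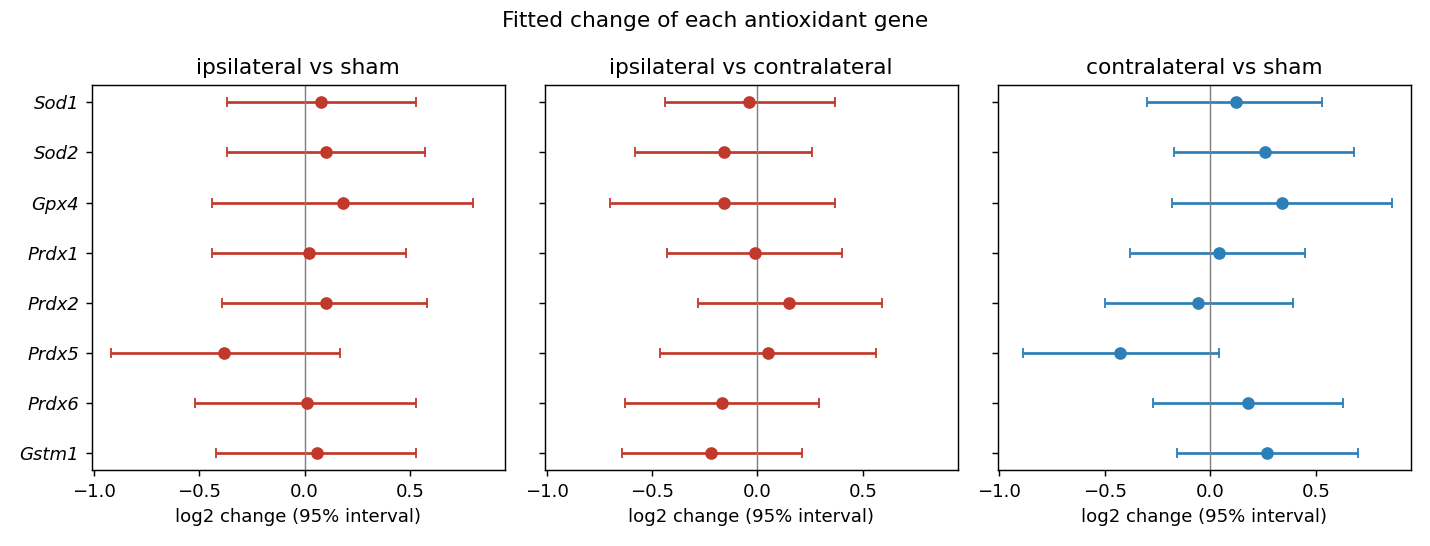
Fitted log2 change of each antioxidant gene (points) with its 95% interval (bars) in ipsilateral against sham, ipsilateral against contralateral and contralateral against sham cortex. Every interval crosses 0, and the points lie between -0.43 and 0.34.

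The 8 genes summed to 2030 ± 140 CPM in ipsilateral, 2140 ± 100 CPM in contralateral and 1970 ± 193 CPM in sham cortex (SD, n = 4, 4 and 3), where CPM is the usual depth-scaled footprint count, with TMM scaling. Single libraries ran from 1860 to 2160 CPM in ipsilateral, 2040 to 2280 CPM in contralateral and 1770 to 2160 CPM in sham cortex, so the groups overlapped. These sums rest on 67 to 283 footprints in the ipsilateral libraries, 267 to 1192 in the contralateral and 113 to 500 in the sham libraries.

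The sequences that bear on how these genes are read follow, since footprints are short and several of these enzymes have near copies. Gpx4 is a selenoprotein: the messenger carries an in-frame TGA that ribosomes read as selenocysteine rather than as a stop, and it was the only such codon in the coding parts of the 8 transcripts. It is codon 73 of 197, shown in capitals within 63 bases of the coding strand (chromosome 10, GENCODE vM21 transcript of mm10).
Gpx4: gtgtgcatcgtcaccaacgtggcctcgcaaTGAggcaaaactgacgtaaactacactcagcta
Prdx1 and Prdx2, the closest relatives in the list, share an identical coding run of at most 14 bases, in capitals below. The codon just before the run is number 52 (TGT) in Prdx1 and number 51 (TGC) in Prdx2, both for cysteine, the residue with which peroxiredoxins attack peroxide.
Prdx1: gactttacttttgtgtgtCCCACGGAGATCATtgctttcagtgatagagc
Prdx2: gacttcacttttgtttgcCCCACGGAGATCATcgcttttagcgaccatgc
No 28-base word occurs in the coding parts of more than 1 of the 8 genes, so members share no exact coding match of that length. Matches with mismatches were not examined. Copies elsewhere in the genome are a different matter. Of the 28-base words of the Gpx4 transcript 75.1% occur in another annotated gene, mostly the pseudogene Gpx4-ps2, and the shares were 48.9% for Prdx1, 38.8% for Sod1, 36.4% for Gstm1, 16.5% for Prdx2, 6.27% for Prdx6, 4.35% for Sod2 and 0% for Prdx5. Within coding parts alone, the shares were 84.5% for Gpx4, 72.6% for Prdx1, 66.5% for Gstm1, 54.3% for Sod1 and 42.6% for Prdx2. They were 13.7% for Prdx6 and 0% for Sod2 and Prdx5. How reads with several matches were handled is unknown, so the levels of Gpx4, Prdx1, Sod1, Gstm1 and Prdx2 are uncertain. Over the whole transcript, Gstm1 shares 20.8% of its words with other genes of the table, among them Gstm3. It was the only one of these uncertain genes with such a share.

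The RefSeq promoter table (GRCm38.p6, 250 bases before to 50 after the start) held 11 windows for 7 of the 8 genes. The antioxidant response element core TGACNNNGC, searched on both strands, was present in 2 of them, 1 each of Prdx1 and Sod1, and in 12.4% of all 32851 windows of that length. It is shown in capitals within 59 bases of each, both on the minus strand of the gene. The Prdx1 match begins 133 bases and the Sod1 match 56 bases before the RefSeq start site of the window. For Prdx1 that is not the start of the transcript read here. Its window ends at 116685648, and the transcript starts at 116685887. The Prdx1 stretch is chr4:116685441-116685499 and the Sod1 stretch chr16:90220681-90220739, both on the plus strand of the genome.
Prdx1 promoter: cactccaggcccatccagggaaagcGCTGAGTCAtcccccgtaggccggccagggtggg
Sod1 promoter: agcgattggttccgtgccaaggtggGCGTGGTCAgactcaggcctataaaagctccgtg
A match of these letters is a description only.

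Sod1, the copper-zinc dismutase of the cytosol, lies on chromosome 16 from 90220754 to 90226329 on the plus strand of mm10. It measured 389, 293, 309 and 284 CPM in ipsilateral replicates 2, 4, 5 and 6, 317, 306, 380 and 320 CPM in contralateral replicates 1, 4, 5 and 6, and 283, 236 and 376 CPM in sham replicates 1, 2 and 5. The 3 groups overlapped, with the lowest value in sham replicate 2 and the highest in ipsilateral replicate 2. The log2 change was 0.08 ± 0.22 (SE) ipsilateral against sham, with an interval from 0.772-fold to 1.45-fold. It was -0.04 ± 0.20 ipsilateral against contralateral, and 0.12 ± 0.21 contralateral against sham.

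Sod2, the manganese dismutase of the mitochondrial matrix, lies on chromosome 17 from 13007817 to 13020134 on the plus strand. It measured 269, 264, 247 and 284 CPM in the ipsilateral libraries, in the same replicate order, 350, 237, 269 and 330 CPM in the contralateral and 259, 236 and 249 CPM in the sham libraries. Ipsilateral and sham values lay close together and overlapped, while contralateral replicates 1 and 6 stood above every other library. The log2 change was 0.10 ± 0.23 ipsilateral against sham, -0.16 ± 0.21 ipsilateral against contralateral and 0.26 ± 0.21 contralateral against sham (edgeR adjusted p = 0.974, 0.928 and 0.960).

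Gpx4, which uses glutathione to reduce lipid hydroperoxides in membranes and is the main brake on ferroptosis, lies on chromosome 10 from 80053488 to 80056439 on the plus strand. It had the fewest footprints of the 8 genes, 280 over all libraries. It measured 164, 58.7, 136 and 120 CPM in ipsilateral, 128, 130, 158 and 160 CPM in contralateral and 98.2, 173 and 116 CPM in sham cortex. The low ipsilateral value is replicate 4, where it rests on 2 footprints, and the high sham value is replicate 2, where it rests on 11. The log2 change was 0.18 ± 0.31 ipsilateral against sham, with an interval from 0.735-fold to 1.74-fold, the widest on the log2 scale among the 8 genes. Its plain group means had the other order (120 ± 44.7 CPM ipsilateral, 129 ± 38.9 CPM sham), since the fit weights libraries by depth, so no direction can be given. Changes of -0.16 ± 0.26 ipsilateral against contralateral and 0.34 ± 0.26 contralateral against sham did not pass either (edgeR adjusted p = 0.956 and 0.950). The replicate number marks the day of surgery, and between libraries of the same number ipsilateral minus contralateral was -1.02 (log2) for replicate 4, -0.20 for replicate 5 and -0.38 for replicate 6, below 0 in 3 of 3 pairs, the first of them resting on the 2 footprints above. With the replicate number as a block that change was -0.43 (unadjusted p = 0.147, edgeR adjusted p = 0.816). Without ipsilateral replicate 4 and no block it was -0.073, and without ipsilateral replicate 2 it was -0.38. Gpx4 was not alone in its 3 of 3 pairs below 0. In the same pairs Sod1 stood at -0.06, -0.29 and -0.17 and Prdx6 at -0.06, -0.09 and -0.02. The share of all tested genes with 3 of 3 pairs below 0 was not counted.

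**Figure D2:**
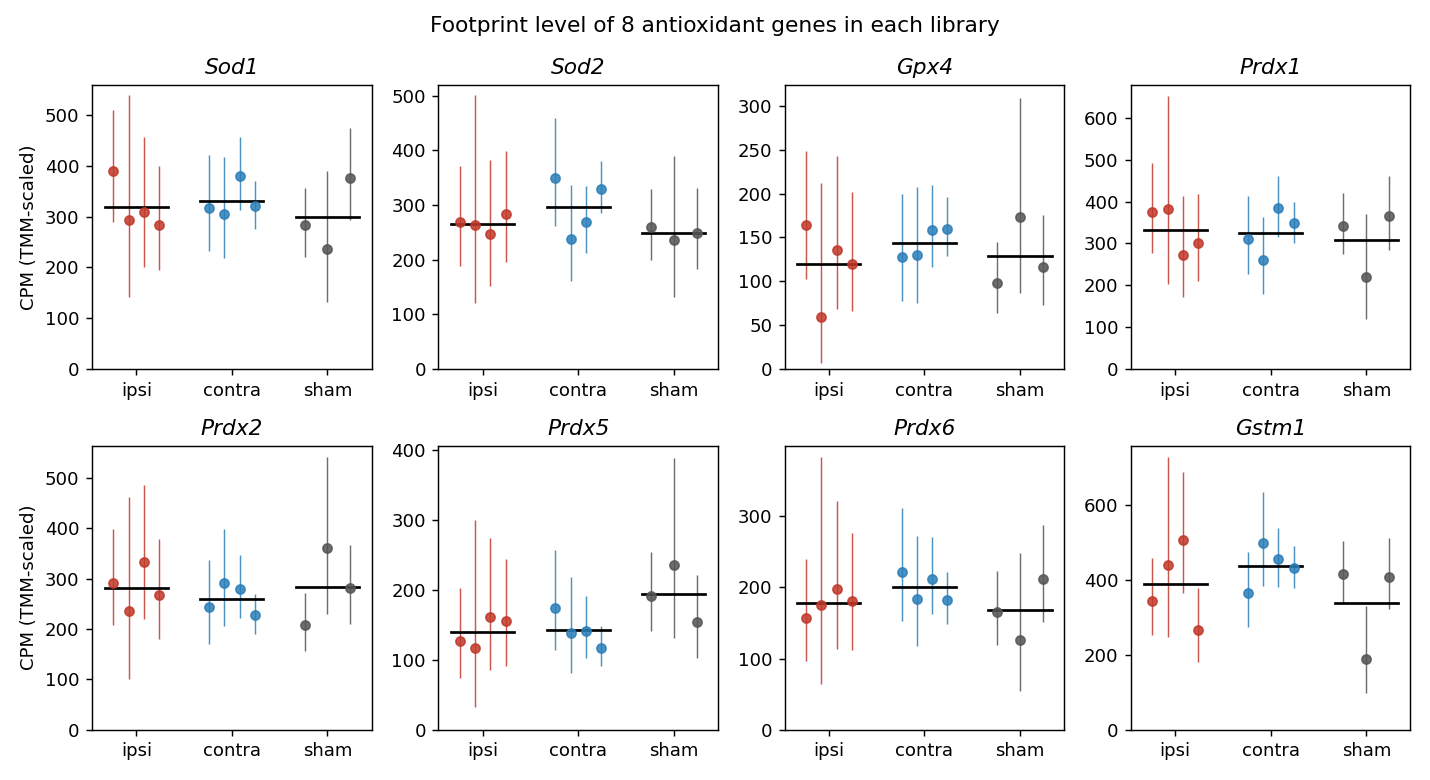
Footprint level (TMM-scaled CPM, linear axes from 0) of each gene in every library, with ipsilateral replicates 2, 4, 5 and 6, contralateral replicates 1, 4, 5 and 6 and sham replicates 1, 2 and 5 from left to right; thin bars are exact Poisson 95% intervals of the count and black lines are group means. The groups overlap for all 8 genes, and the longest bars belong to the shallow libraries, ipsilateral replicate 4 and sham replicate 2.

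Prdx1 and Prdx2 are peroxiredoxins of the cytosol that are recycled by thioredoxin, Prdx2 being known as the form most abundant in neurons. Prdx1 lies on chromosome 4 from 116685887 to 116699272 and Prdx2 on chromosome 8 from 84969611 to 84974834, both on the plus strand. Prdx1 measured 374, 381, 272 and 301 CPM in ipsilateral, 310, 260, 384 and 348 CPM in contralateral and 342, 220 and 365 CPM in sham cortex. Its lowest value was sham replicate 2, and the other sham libraries lay within the ranges of both hemispheres. The log2 change of Prdx1 was 0.02 ± 0.23 ipsilateral against sham, -0.01 ± 0.20 ipsilateral against contralateral and 0.04 ± 0.21 contralateral against sham. Prdx2 measured 291, 235, 334 and 267 CPM in ipsilateral, 243, 291, 279 and 227 CPM in contralateral and 208, 361 and 281 CPM in sham cortex. Here sham replicate 2 was the highest library rather than the lowest. The log2 change of Prdx2 was 0.10 ± 0.24 ipsilateral against sham, at almost equal means (282 ± 41.9 and 283 ± 76.6 CPM), 0.15 ± 0.21 ipsilateral against contralateral and -0.06 ± 0.22 contralateral against sham. The Prdx2 transcript overlaps the oppositely oriented immediate early gene Junb by 173 nt and the oppositely oriented Rnaseh2a by 152 nt. The use of strand in counting is not given. Junb itself had log2 changes of -0.04 ± 0.39 ipsilateral against sham, 0.75 ± 0.37 ipsilateral against contralateral and -0.79 ± 0.36 contralateral against sham, and it did not pass. The Prdx2 transcript without the overlap with Junb held 499 counts, against 519 for the one with it. By group these were 103 and 105 in ipsilateral, 269 and 285 in contralateral and 127 and 129 in sham cortex. The part of Junb reads in the Prdx2 counts was not tested. The overlap with Rnaseh2a was not examined in this way.

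Prdx5, a peroxiredoxin of mitochondria, peroxisomes and cytosol, lies on chromosome 19 from 6906706 to 6910106 on the minus strand. It measured 127, 117, 161 and 155 CPM in ipsilateral, 175, 138, 141 and 117 CPM in contralateral and 192, 236 and 154 CPM in sham cortex. It had the largest change of the 8 genes in size against sham in both hemispheres: -0.38 ± 0.27 ipsilateral (0.527-fold to 1.12-fold, adjusted p = 0.808) and -0.43 ± 0.23 contralateral (0.539-fold to 1.03-fold, unadjusted p = 0.0730, edgeR adjusted p = 0.912). The groups overlapped, since ipsilateral replicates 5 and 6 (161 and 155 CPM) and contralateral replicate 1 (175 CPM) stood above sham replicate 5 (154 CPM). Both comparisons use the same 3 sham libraries. Between libraries of the same day of surgery, ipsilateral minus sham was -0.84 (log2) for replicate 2 and 0.06 for replicate 5. Contralateral minus sham was -0.13 for replicate 1 and -0.11 for replicate 5. A fit with that day as a block put the log2 changes against sham at -0.23 ipsilateral and -0.28 contralateral. Without sham replicate 5 they were -0.52 and -0.57 (contralateral, unadjusted p from edgeR = 0.0405, edgeR adjusted p = 0.745). Over 20 alternatives they ran from -0.52 to -0.23 and from -0.57 to -0.28. Of these alternatives 0 had the opposite sign and 0 passed the adjusted threshold in either comparison with sham. Ipsilateral and contralateral cortex differed by 0.05 ± 0.25. Prdx5 overlaps Trmt112, on the opposite strand, by 409 nt.

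Prdx6 has a single catalytic cysteine, uses glutathione and also acts on phospholipids, and in brain it is known from astrocytes. It lies on chromosome 1 from 161240112 to 161251219 on the minus strand. It measured 157, 176, 198 and 181 CPM in ipsilateral, 222, 184, 212 and 183 CPM in contralateral and 165, 126 and 212 CPM in sham cortex. The ipsilateral libraries lay inside the sham range, and sham replicate 2 was again lowest, on 8 footprints. The log2 change was 0.01 ± 0.26 ipsilateral against sham, -0.17 ± 0.23 ipsilateral against contralateral and 0.18 ± 0.22 contralateral against sham.

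Gstm1, a mu-class glutathione transferase known from astrocytes in brain, lies on chromosome 3 from 108012255 to 108017973 on the minus strand. It had the most footprints of the 8 genes, 825 over all libraries, and measured 344, 440, 507 and 267 CPM in ipsilateral, 364, 497, 454 and 432 CPM in contralateral and 416, 188 and 408 CPM in sham cortex. Sham replicate 2 was less than any other library, with 12 footprints. The log2 change was 0.06 ± 0.23 ipsilateral against sham, -0.22 ± 0.21 ipsilateral against contralateral (0.641-fold to 1.16-fold) and 0.27 ± 0.21 contralateral against sham (edgeR adjusted p = 0.991, 0.873 and 0.950). Ipsilateral against contralateral it was -0.058 without ipsilateral replicate 6 and -0.40 without ipsilateral replicate 5 (unadjusted p from edgeR = 0.0937). Contralateral against sham it was 0.092 without sham replicate 2 and 0.45 without sham replicate 1. Without sham replicate 2 and ipsilateral replicate 4, the shallowest libraries, the ipsilateral change against sham was -0.18, the opposite sign.

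Sham replicate 2 therefore pulled the genes in opposite directions. It was the lowest sham library for Sod1, Sod2, Prdx1, Prdx6 and Gstm1 and the highest for Gpx4, Prdx2 and Prdx5. It held 64460 counts in all, against 256657 and 194996 in the other sham libraries. Library totals, with each gene counted once, ran from 35068 to 137341 in ipsilateral, 137372 to 571351 in contralateral and 64460 to 256657 in sham cortex. Counts of the 8 genes ran from 2 to 243 in a library. In 13 of the 24 combinations of gene and group the SD between libraries was at or below the SD that counting alone gives, and in the other 11 it was above; the median ratio was 0.934. The ratio was highest for Gstm1 in sham cortex, at 2.72, and lowest for Sod2 in ipsilateral cortex, at 0.244.

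Levels of different genes were compared as CPM per kb of coding sequence. Over the 11 libraries Sod1 was highest at 687 ± 102 CPM per kb (SD), followed by Gstm1 at 600 ± 148, Prdx1 at 542 ± 92.1, Prdx2 at 462 ± 77.1, Sod2 at 409 ± 55.4, Prdx6 at 273 ± 41.5, Prdx5 at 247 ± 56.0 and Gpx4 at 222 ± 56.4 CPM per kb. The only neighbours in this order that kept their order in every library were Sod2 above Prdx6, in 11 of 11. Sod1 exceeded Gstm1 in 7 of 11 libraries, Gstm1 exceeded Prdx1 in 8, Prdx1 exceeded Prdx2 in 8, Prdx2 exceeded Sod2 in 7, Prdx6 exceeded Prdx5 in 9 and Prdx5 exceeded Gpx4 in 7. Apart from Sod2 and Prdx6, neighbours in the order thus did not keep it throughout. Prdx6 was above Prdx5 in 4 of 4 ipsilateral and 4 of 4 contralateral libraries but in 1 of 3 sham libraries. Among the 3782 tested genes with a coding length, Sod1 ranked 222 from the top (percentile 94.2) and Gpx4 832 (percentile 78.0), with the other 6 between them. The order depends on the length used: per kb of whole transcript Sod2, whose transcript is 5861 nt long with 666 nt of coding sequence, came last with 46.5 CPM per kb.

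**Figure D3:**
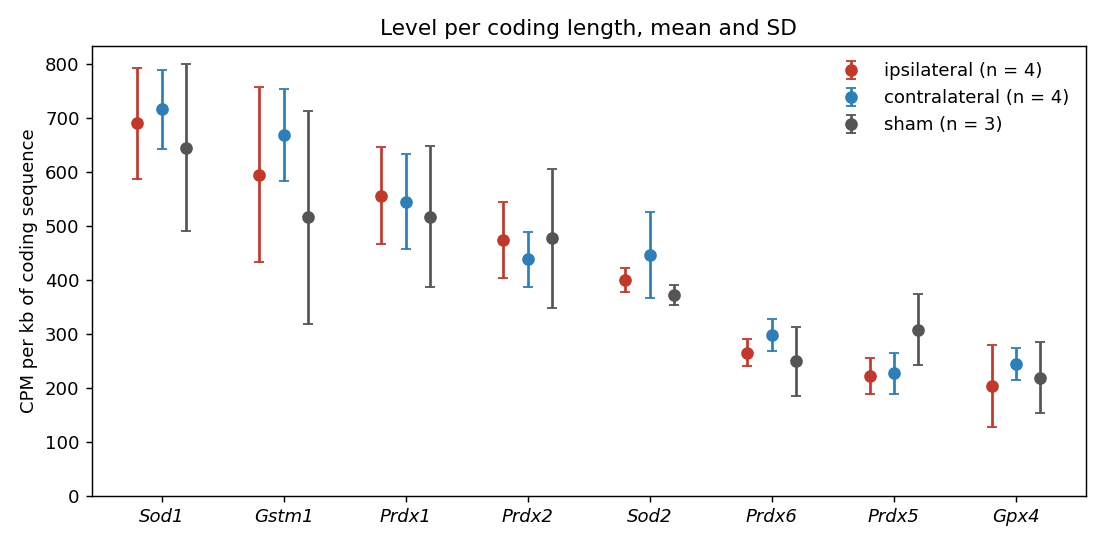
CPM per kb of coding sequence (linear axis from 0) for the 8 genes in the order of their mean over 11 libraries, as group mean (points) and SD (bars) for ipsilateral, contralateral and sham cortex. The means of Sod1 through Sod2 stand above those of Prdx6, Prdx5 and Gpx4 in all 3 groups, and Prdx5 averaged 222 ± 33.5 in ipsilateral, 227 ± 38.1 in contralateral and 308 ± 65.2 CPM per kb in sham cortex.

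Where a gene had several deposited transcripts, the one with the fewest counts held 92.5% of the count of the one with the most for Gpx4, 96.1% for Prdx2, 81.5% for Gstm1, 70.3% for Prdx1 and 65.3% for Prdx5, and for Prdx6 358 counts beside 377. For Prdx5 this share was 53.8% in ipsilateral (28 of 52 counts, Wilson 95% interval 40.5% to 66.7%), 71.1% in contralateral (108 of 152, 63.4% to 77.7%) and 62.4% in sham cortex (58 of 93, 52.2% to 71.5%). These intervals take the lower count as a part of the higher one, which was not checked, and they pool libraries. They cover counting error at most, and their overlap does not show that the groups agree.

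The rest of the antioxidant network was read from a list of 106 genes in 7 groups, of which 39 were in the table and 34 were tested. None of the 34 passed in any comparison (0 of 34 in each, edgeR smallest adjusted p of 0.114 ipsilateral against sham, 0.0760 ipsilateral against contralateral and 0.701 contralateral against sham). At an unadjusted p under 0.05 stood 3, 5 and 3 of the 34, where the shares of all tested genes were 7.74%, 7.61% and 5.66%. Their median log2 changes were 0.08, 0.05 and 0.07 in the same order. Hmox1, Nqo1, Gclc, Gclm, Srxn1, Slc7a11 and Txnrd1, textbook NRF2 targets on the list, were not among the genes tested and are not analysed here.

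Other enzymes of peroxide and superoxide disposal were tested for 5 of 13 genes. Gpx1, the cytosolic glutathione peroxidase, measured 29.9, 58.7, 86.6 and 68.8 CPM in ipsilateral, 47.2, 30.6, 63.9 and 39.1 CPM in contralateral and 82.5, 126 and 101 CPM in sham cortex. Every contralateral library lay below every sham library, on counts of 4 to 22, while 1 ipsilateral library overlapped sham. Contralateral and sham cortex did not overlap for 7.69% of all tested genes, and Gpx1 was named for its small p. The log2 change of Gpx1 was -1.06 ± 0.36 contralateral against sham (unadjusted p = 0.00499, edgeR adjusted p = 0.701) and -0.72 ± 0.42 ipsilateral against sham (edgeR adjusted p = 0.728). Selenop, the selenium carrier, had the smallest p of this group ipsilateral against contralateral, at a log2 change of 0.29 ± 0.26.

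The thioredoxin group was tested for 6 of 17 genes, and Txnip, which encodes an inhibitor of thioredoxin, had the smallest p of the group in all 3 comparisons. Txnip measured 105, 58.7, 111 and 68.8 CPM in ipsilateral, 80.8, 45.9, 37.0 and 63.9 CPM in contralateral and 31.4, 0 and 31.8 CPM in sham cortex. All ipsilateral and all contralateral libraries stood above all sham libraries, on 0 to 8 footprints in sham, where a count of 0 is sham replicate 2. Of all tested genes, 7.20% and 7.69% did not overlap in these comparisons. Txnip was named for its small p in the same data, so this separation adds no support. The log2 change was 1.70 ± 0.51 ipsilateral against sham (unadjusted p = 0.00175, edgeR adjusted p = 0.208), 1.04 ± 0.47 contralateral against sham (edgeR adjusted p = 0.862) and 0.66 ± 0.39 ipsilateral against contralateral (edgeR adjusted p = 0.718). Txnip did not pass in any of them, and it overlaps Gm15441 on the opposite strand by 603 nt.

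Genes that bind or carry iron and other metals, which can feed radical chemistry, were tested for 6 of 9. Trf, encoding transferrin, measured 1370, 792, 520 and 688 CPM in ipsilateral, 492, 581, 407 and 348 CPM in contralateral and 455, 424 and 397 CPM in sham cortex. Its log2 change was 1.02 ± 0.26 ipsilateral against sham (edgeR adjusted p = 0.114) and 0.95 ± 0.23 ipsilateral against contralateral (edgeR adjusted p = 0.0760), short of the threshold in both. All ipsilateral libraries stood above all sham libraries, replicate 2 by far the most. Ipsilateral and sham cortex did not overlap for 7.20% of all tested genes, and Trf was named for its small p. Trf was thus not called. Oligodendrocyte markers, given with the other cell types, were called higher for 5 of 7 genes ipsilateral against contralateral, where 0.365% of all tested genes passed. Ipsilateral against sham 0 of 7 were called. The part of these markers in Trf was not tested. Trf shares 2108 nt with the annotated gene Gm20425, so its counts are uncertain. In the same comparison with contralateral cortex the metallothionein genes Mt1 (0.49 ± 0.22) and Mt2 (0.95 ± 0.29, edgeR adjusted p = 0.202) had unadjusted p of 0.0350 and 0.00246, and both were picked out after their values were seen. Of the group's 6 tested genes, 4 had an unadjusted p under 0.05 ipsilateral against contralateral: Trf, Mt1, Mt2 and Tfrc. The share of all tested genes was 7.61%. The change of Tfrc, the transferrin receptor, lay on the other side of 0, at -0.47 ± 0.22 (unadjusted p from edgeR = 0.0432). Contralateral against sham Tfrc had the smallest p of the group, with a log2 change of 0.36 ± 0.22.

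The glutathione synthesis and recycling group was tested for 3 of 16 genes. The log2 change of Slc1a1, the neuronal carrier of glutamate and of cysteine for glutathione, was 0.54 ± 0.25 ipsilateral against sham and 0.47 ± 0.23 contralateral against sham, and that of Slc3a2, a subunit of amino acid exchangers, was 0.42 ± 0.19 ipsilateral against contralateral (edgeR adjusted p = 0.618, 0.876 and 0.596). Other glutathione transferases were tested for 6 of 22 genes. Gsta4 had a log2 change of 0.47 ± 0.43 ipsilateral against sham, and that of Gstp2 was -0.42 ± 0.29 ipsilateral against contralateral and 0.35 ± 0.27 contralateral against sham. Of the words of Gstp2 79.7% occur in another gene, mostly Gstp1, so its counts are uncertain. Genes of the NRF2 axis were tested for 5 of 16. The log2 change of Aldh2 was 0.54 ± 0.32 ipsilateral against sham, that of the haem oxygenase gene Hmox2 -0.48 ± 0.28 ipsilateral against contralateral and that of the NRF2 pathway adaptor gene Sqstm1 -0.22 ± 0.17 contralateral against sham. NADPH supply was tested for 3 of 13 genes. Of the pentose phosphate enzymes, Pgd had a log2 change of 0.17 ± 0.40 ipsilateral against sham, and Tkt of 0.30 ± 0.21 ipsilateral against contralateral and -0.21 ± 0.21 contralateral against sham. Slc1a1, Aldh2, Hmox2, Selenop and Mt2 each overlap a gene on the opposite strand, by 130 to 1216 nt.

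**Figure D4:**
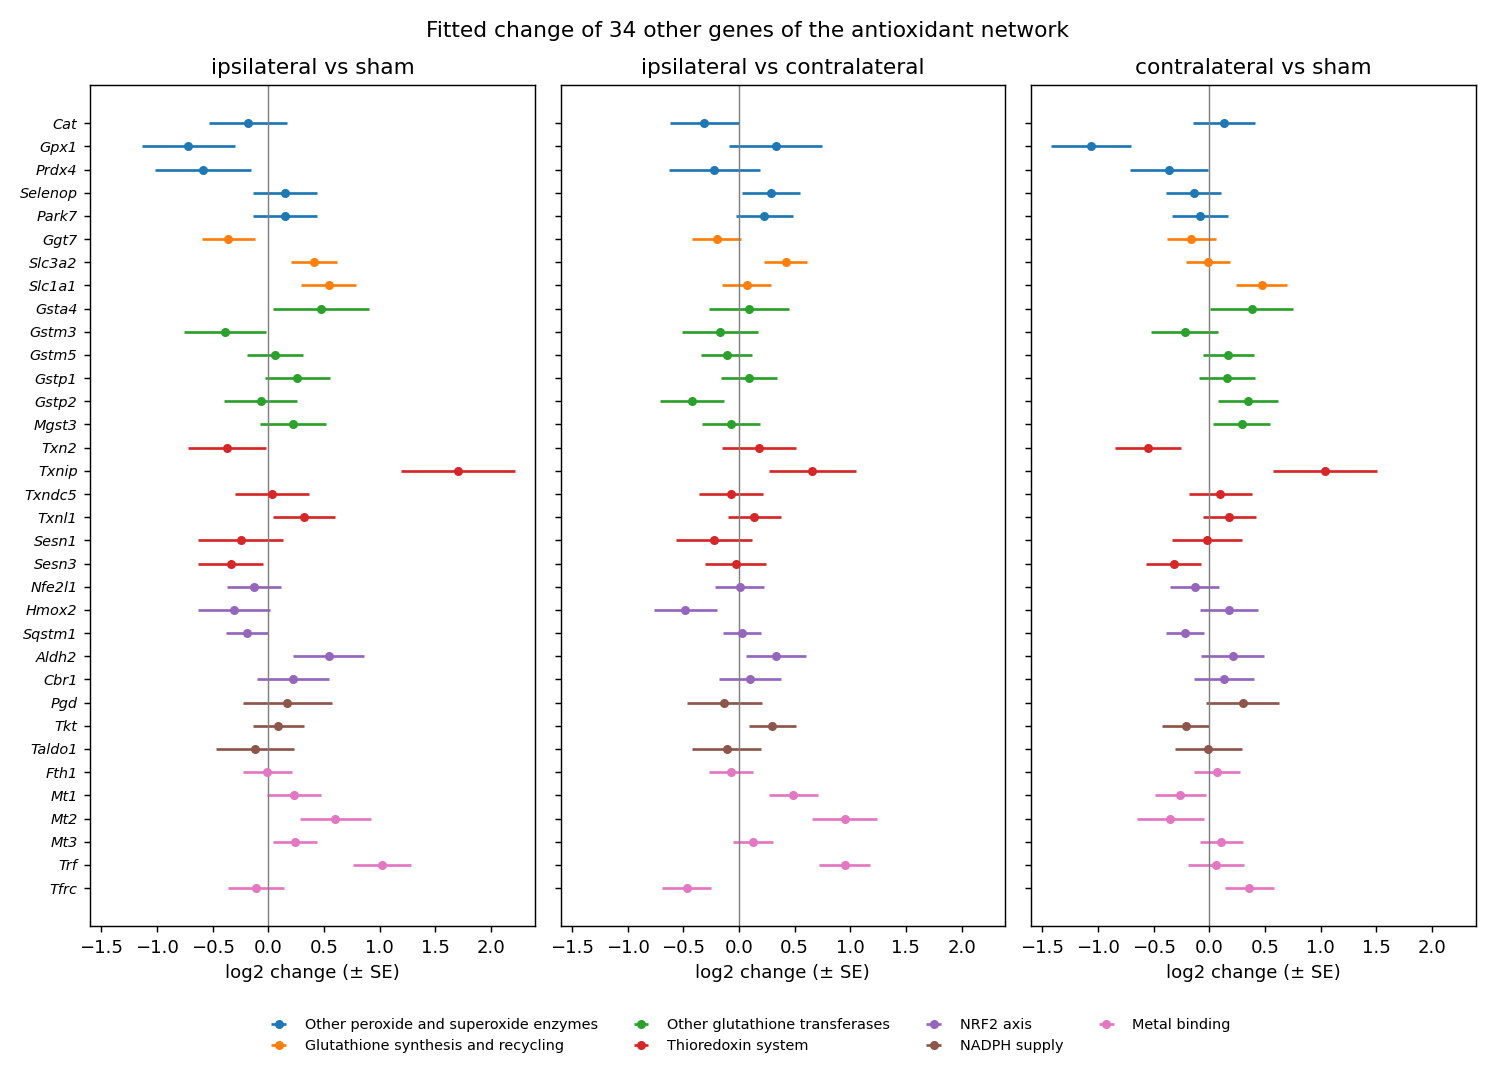
Fitted log2 change (points) with SE (bars) of the 34 tested genes of the wider antioxidant network in ipsilateral against sham, ipsilateral against contralateral and contralateral against sham cortex, coloured by group. Txnip lies farthest right at 1.70 ± 0.51 against sham and Gpx1 farthest left at -1.06 ± 0.36 in contralateral against sham cortex, and no gene passed the adjusted threshold.

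Cell type markers moved in part between the groups. All 13 astrocyte and all 11 neuron markers were tested, and 0 of either passed in any comparison. Summed astrocyte markers ran from 31400 to 33400 CPM in ipsilateral, 28500 to 39800 CPM in contralateral and 26300 to 34000 CPM in sham cortex, and summed neuron markers from 13800 to 16800, 15400 to 18300 and 15400 to 17200 CPM. Of the oligodendrocyte markers 5 of 7 tested passed as higher ipsilateral against contralateral, where 0.365% of all tested genes passed. In both comparisons with sham 0 of 7 passed. Their sum ran from 2730 to 5930 CPM in ipsilateral, 1990 to 2750 CPM in contralateral and 1960 to 2620 CPM in sham cortex. Microglia markers summed to 1560 to 2070 CPM in ipsilateral, 1220 to 1450 CPM in contralateral and 911 to 1200 CPM in sham cortex, with 0 of 8 passing. Red blood cells are rich in Prdx2. Their 4 tested markers summed to 1040 to 2020 CPM in ipsilateral, 566 to 989 CPM in contralateral and 895 to 1320 CPM in sham cortex. Of these 4 markers 2 passed as higher ipsilateral against contralateral, and 0 passed in either comparison with sham. Contralateral against sham 0 of 4 had a log2 change above 0 (median -0.71). Only 1 of 6 endothelial markers was tested. The part of these shifts in the values of the 8 genes was not tested.

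For each gene similar profiles over the 11 libraries were sought among 1125 other genes with at least 200 CPM. For Prdx6 they were Aldoc, an aldolase gene known from astrocytes (Pearson r = 0.88, Spearman rho = 0.81), and Actr2 (0.86 and 0.83). For Prdx5 they were Oxct1, a mitochondrial enzyme of ketone use (0.94 and 0.88), and 2010300C02Rik (0.86 and 0.73), and for Gstm1 Ndufs1, a subunit of respiratory complex I (0.91 and 0.93), and Plcb1 (0.91 and 0.92). Prdx2 was most like Tenm4 (0.89 and 0.93) and Igsf8 (0.79 and 0.82), and for Sod2 Rcn2 (0.75 and 0.77) is given. Prdx1 was most like Pgk1-rs7 (0.94 and 0.94) and Ncl (0.90 and 0.75), and Sod1 like Ptma (0.84 and 0.75) and Pgk1-rs7 (0.84 and 0.82). Gpx4 was most like Arxes1 and Arxes2 (0.90 and 0.88 for both). Arxes1 and Arxes2 also had the same mean of 216 CPM, and whether they hold the same reads was not examined. All these are the highest of many coefficients over libraries of unequal depth, and they are given as a description with no test.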

How the data were processed

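Per the submitters' design text, cortex was treated with micrococcal nuclease, monosomes were purified and immunoprecipitated through the large-subunit protein P0, and animals with the same replicate number were operated on the same day; whether both hemispheres came from the same mice is not stated. Per the labels' protocols, protected RNA of 30 to 50 nt became small RNA libraries read as 69 bp single ends. The values the authors deposited are raw read counts, whole numbers for each Ensembl transcript in each library. The submitters' processing notes list Bowtie2, edgeR and the mm10 build; how reads were filtered and assigned, and whether by strand, is not given in the sources used here. Of 9784 transcripts, 9736 matched GENCODE vM21 by identifier; the other 48 held 0.306% of the counts and were left out. The table holds only transcripts with a summed count of at least 101. Isoforms often repeat the same counts (2255 transcripts repeat an earlier profile), so 1 transcript per gene was used.

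All 11 libraries were fitted together with edgeR 4.0.16 in R 4.3.3: genes kept by filterByExpr (minimum count 10), scaling by TMM, quasi-likelihood F tests with robust shrinkage, Benjamini-Hochberg adjustment over 3835 genes within a comparison, threshold 0.05. An SE is the log2 change over the root of F, and 95% intervals use its degrees of freedom. For some genes the test's p is larger than the change and SE give, so those intervals may be too narrow. An example is Prdx2 contralateral against sham (-0.06 ± 0.22, unadjusted p from edgeR = 0.875). Alternatives used DESeq2 1.42.0, limma 3.58.1, other scaling, other samples and a replicate block. Scripts were tested on simulated data. Same-number pairing was checked: deviations from group means correlated at a median r of 0.131 over the 7 same-number pairs and -0.0300 over the 33 others, across genes, which are not independent. The 8 genes, the network list (named by rule: the gene of each group with the smallest p per comparison) and the marker lists were chosen with earlier results of these data known. Of the genes with similar profiles, 1 is not reported here.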

Additional observations from a re-analysis of the deposited data

Results flagged for a closer look

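Tkt, encoding transketolase, measured 176 CPM in ipsilateral replicate 4, against 374 to 413 CPM in the other ipsilateral libraries. It was picked out because this gap took up 0.834 of the whole range of the group, above Dixon's 95% limit for 4 samples. The value rests on 6 footprints in the shallowest library. Among 44 groups of 4 libraries examined (22 genes, the 8 antioxidant genes included) this was the only 1 beyond the limit, where chance gives about 1 in 20.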

How the results depend on the processing

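Across 20 alternatives, 0 of the 480 values of the 8 genes passed the adjusted threshold (smallest adjusted p = 0.639; DESeq2 gave none for Gpx4 and Prdx5 ipsilateral against sham), and 38 had the opposite sign to the fit reported. Without scaling beyond the library total, Prdx1 and Prdx6 stood at -0.0076 and -0.025 ipsilateral against sham. With the replicate number as a block, Gpx4 stood at -0.0051 ipsilateral against sham, Prdx1 at 0.0063 ipsilateral against contralateral and Prdx2 at 0.017 contralateral against sham; the block changed no call of the 8 genes and gave 3, 11 and 0 called genes in the 3 comparisons, against 4, 14 and 0. Summing distinct transcripts gave Prdx5 -0.044 ipsilateral against contralateral and 7 called genes there. Without the 2 shallowest libraries, Prdx1, Prdx6 and Gstm1 stood at -0.15, -0.088 and -0.18 ipsilateral against sham, Prdx1 and Prdx2 at -0.079 and 0.097 contralateral against sham, and 7 genes were called ipsilateral against contralateral. DESeq2 called 10 genes ipsilateral against sham and 2 contralateral against sham.

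Leaving out 1 library at a time gave 0 to 22 called genes ipsilateral against sham, 4 to 26 ipsilateral against contralateral and 0 to 3 contralateral against sham. The library left out gave 0 (sham replicate 1), 2 (sham replicate 5) and 22 (ipsilateral replicate 5) genes ipsilateral against sham. Ipsilateral against contralateral it gave 4 to 9 without contralateral replicates 1, 4 or 6 or ipsilateral replicates 2 or 4, and 26 without ipsilateral replicate 5; contralateral against sham it gave 3 without sham replicate 5 and 1 without ipsilateral replicate 6. Ipsilateral against sham the log2 change ran from -0.064 to 0.28 for Sod1, -0.022 to 0.31 for Gpx4, -0.11 to 0.14 for Prdx1, -0.12 to 0.23 for Prdx2, -0.089 to 0.20 for Prdx6 and -0.14 to 0.22 for Gstm1. Ipsilateral against contralateral it ran from -0.19 to 0.039 for Sod1, -0.13 to 0.064 for Prdx1 and -0.090 to 0.12 for Prdx5, and contralateral against sham from -0.081 to 0.15 for Prdx1 and -0.26 to 0.10 for Prdx2. Per kb of whole transcript the levels were 495 for Sod1, 369 for Prdx1, 304 for Gstm1, 183 for Prdx2, 137 for Gpx4, 123 for Prdx5, 76.7 for Prdx6 and 46.5 CPM for Sod2, since untranslated parts then count as length. The cause of the other shifts was not tested.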
